A study of Homo sapiens with 4 samples.

Results

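Mitochondrial ribosomal protein genes were taken as all genes whose symbol is MRPL or MRPS followed by a digit, read on probe sets annotated to exactly 1 gene, with the probe set of highest mean signal used per gene. The rule found 77 of the 19775 genes on the array that have such a probe set. They were 48 large subunit (MRPL) and 27 small subunit (MRPS) protein genes, 1 antisense transcript (MRPL20-AS1) and 1 pseudogene (MRPL45P2). All 75 protein genes and MRPL20-AS1 passed the minimum signal, a mean of 78.1 over the arrays, and MRPL45P2 did not. The study used 4 Affymetrix arrays, each from 1 RNA sample of a human non-small cell lung cancer line. The groups were A549 with hMOF siRNA, A549 with scramble siRNA, H1299 with hMOF siRNA and H1299 with scramble siRNA, all given with Lipofectamine 2000 to cells grown in DMEM with serum. A549 is a lung adenocarcinoma line and H1299 a line from a lymph node metastasis of a lung carcinoma. The labels used here name neither the siRNA sequence nor the hours of transfection nor the number of cultures. Each group had 1 array, so a ratio within a line has no error of its own, and over both lines the spread may be technical.

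The mitochondrial ribosome makes the few proteins that mitochondrial DNA encodes, which are membrane subunits of the respiratory chain and of ATP synthase. Its RNAs come from mitochondrial DNA, whereas every one of its proteins is encoded in the nucleus, made in the cytosol and imported. Many of these proteins have counterparts in bacterial ribosomes and others are found in mitochondria alone, and the symbol does not always tell the subunit: the products of MRPS18A and MRPS30 sit in the large subunit of the mammalian ribosome. The groups here follow the symbols. hMOF, the product of KAT8, is an acetyltransferase of histone H4 that acts in the MSL and NSL complexes.

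The target of the siRNA was checked first. KAT8 signal was 106 with hMOF siRNA and 402 with scramble siRNA in A549, and 61.8 with hMOF siRNA and 241 with scramble siRNA in H1299, which is 26.4% and 25.6% of scramble. Groups were read from the source names, and on 2 of the 4 arrays the treatment tag contradicts them by naming the other siRNA. In both lines KAT8 was lower on the array whose source name says hMOF siRNA. Array medians lay between 73.3 and 75.4. The 3′ to 5′ signal ratio of the ACTB control, a measure of RNA integrity, was 2.78 with hMOF siRNA and 3.11 with scramble siRNA in A549, and 2.64 and 2.89 in H1299. That ratio was lower with hMOF siRNA in both lines, and its part in the results was not tested. The same ratio of GAPDH was 1.20 with hMOF siRNA and 1.18 with scramble siRNA in A549, and 1.09 and 1.10 in H1299, so it did not move one way with the siRNA. CDH1, an epithelial cadherin, had signals of 1562 with hMOF siRNA and 1535 with scramble siRNA in A549, and of 7.61 and 8.04 in H1299, where this marker of epithelium was near the lowest signals. Not every epithelial gene was that low, since KRT18 had 2459 with hMOF siRNA and 3320 with scramble siRNA in H1299, against 11695 and 12920 in A549.

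Most mitochondrial ribosomal protein genes differed little with hMOF siRNA, and a pair of small subunit genes stood far from the rest. MRPS27 fell and MRPS34 rose in both lines, each more than 2-fold in signal. Ratios were taken on the log2 scale of signal plus 29.06, and limma used both lines together, blocked on the line. At a limma adjusted p under 0.05, 1 MRPS gene was higher and 1 lower, while 25 MRPS genes and all 48 MRPL genes did not pass. Among all 12830 genes tested, 1.16% were called higher and 2.41% lower (149 and 309 genes, or 282 and 366 after quantile normalization), so 1 gene in each direction among 75 is near the background share. At an unadjusted p under 0.05 limma gave 8 MRPL and 9 MRPS genes, 22.7% of the 75 against 23.8% of all genes. In A549 and H1299 together, 69 of the 75 genes (92.0%) stayed within 1.5-fold in both lines, against 83.3% of all genes tested. The arrays read RNA from whole cultures, so fewer cells with a transcript and less transcript per cell cannot be told apart.

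**Figure D1:**
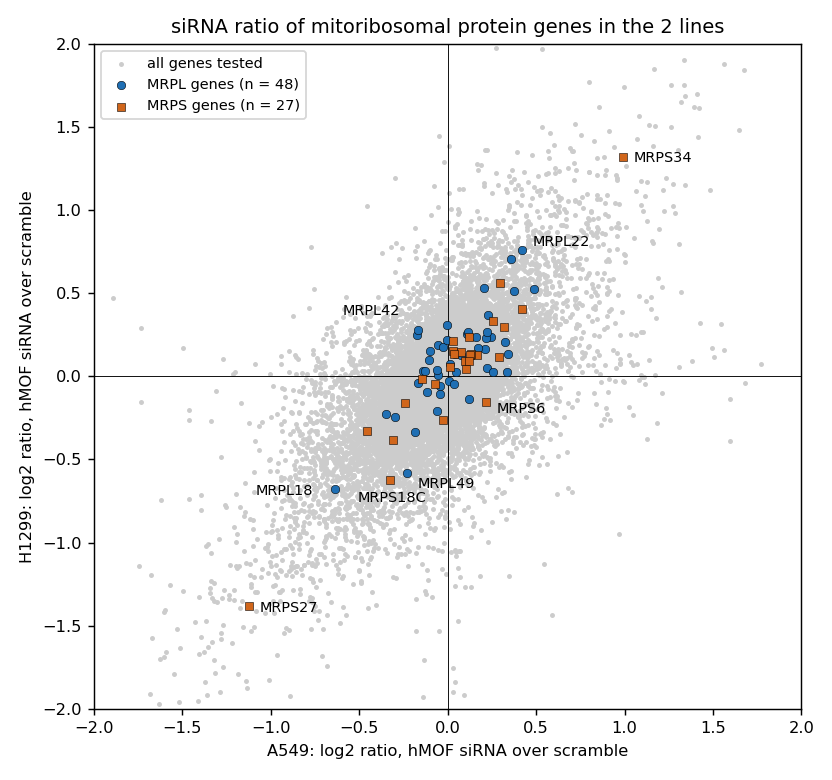
Log2 ratio of hMOF siRNA over scramble siRNA in A549 (x axis) and H1299 (y axis) for 48 MRPL genes (blue circles), 27 MRPS genes (orange squares) and all genes tested (grey, cropped where they lie beyond the axes). MRPS34 lies far up and right at 0.99 and 1.32, MRPS27 far down and left at −1.12 and −1.38, and most other members lie near the origin.

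MRPS27 encodes a pentatricopeptide repeat protein of the small subunit that has no counterpart in bacterial ribosomes. Its signal was 926 with hMOF siRNA and 2052 with scramble siRNA in A549, and 1205 with hMOF siRNA and 3189 with scramble siRNA in H1299. Both hMOF siRNA arrays were below both scramble arrays, with 45.1% of scramble left in A549 and 37.8% in H1299. The log2 ratio was −1.12 in A549 and −1.38 in H1299, a mean of −1.25 ± 0.18 (SD, n = 2 lines) with a limma adjusted p of 0.0295. That adjusted p ran from 0.0207 to 0.0347 over the 9 alternative settings that kept the block, and was 0.9999 without the block. The other MRPS27 probe set lay below the minimum, at signals of 31.1 with hMOF siRNA and 29.0 with scramble siRNA in A549 and 24.9 and 26.3 in H1299, so the fall rests on 1 probe set.

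MRPS34 encodes another mitochondria-specific protein of the small subunit, and inherited loss of it in humans causes a combined deficiency of the respiratory chain. Its signal was 1351 with hMOF siRNA and 665 with scramble siRNA in A549, and 1213 with hMOF siRNA and 468 with scramble siRNA in H1299. Here both hMOF siRNA arrays lay above both scramble arrays, 2.03-fold in A549 and 2.59-fold in H1299. The log2 ratio was 0.99 in A549 and 1.32 in H1299, a mean of 1.16 ± 0.23 (SD, n = 2 lines) with a limma adjusted p of 0.0321, of 0.0219 to 0.0366 over the alternatives that kept the block, and of 0.9999 without the block. MRPS34 has a single probe set on the array.

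MRPL18, the counterpart of a bacterial protein of the central protuberance of the large subunit, was the only other member at least 1.5-fold the same way in both lines. Its signal was 1305 with hMOF siRNA and 2047 with scramble siRNA in A549, and 2069 with hMOF siRNA and 3331 with scramble siRNA in H1299. The ratio was nearly equal in the lines, −0.64 in A549 and −0.68 in H1299 (mean −0.66 ± 0.029, SD, n = 2 lines). With a limma adjusted p of 0.0510 it missed the threshold, which it passed under 6 of the 9 alternatives that kept the block (range 0.0395 to 0.0547). By size within a line, 1 member (MRPS34) was at least 1.5-fold higher in A549, against 3.4% of all genes tested, and 2 (MRPS27 and MRPL18) at least 1.5-fold lower, against 5.78%. In H1299, 3 were 1.5-fold higher (MRPS34, MRPL22 and MRPL24), against 5.06% of genes, and 3 were 1.5-fold lower (MRPS27, MRPL18 and MRPS18C), against 7.33%. Past 2-fold on the ratio scale there were 0 members higher in A549 (0.717% of genes were) and 1 lower, MRPS27 (1.14%). In H1299, 1 was 2-fold higher, MRPS34 (1.22%), and 1 lower, MRPS27 (2.21%). In both lines together, 1 member was 1.5-fold higher in both lines (1.68% of all genes tested were) and 2 were 1.5-fold lower in both (3.17% of all genes).

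The start regions of MRPS34, MRPS27 and MRPL18 are printed as a description, and whether their letters bear on the ratios was not tested. Each window runs from 250 bases before to 50 bases after the most upstream RefSeq start, 5′ to 3′ on the gene's strand, in GRCh38.p14. Capitals mark matches, on either strand, to short cores of 4 families of factors: CCGGAAG (ETS, the family of GABPA), AAGATGG (YY1), GCGCA and GCGC with any 1 base between them (NRF1) and GGGCGG (SP1). MRPS34 lies on the minus strand of chr16:1773085-1773384 and MRPS27 on the minus strand of chr5:72320191-72320490. MRPL18 lies on the plus strand of chr6:159789562-159789861.
MRPS34: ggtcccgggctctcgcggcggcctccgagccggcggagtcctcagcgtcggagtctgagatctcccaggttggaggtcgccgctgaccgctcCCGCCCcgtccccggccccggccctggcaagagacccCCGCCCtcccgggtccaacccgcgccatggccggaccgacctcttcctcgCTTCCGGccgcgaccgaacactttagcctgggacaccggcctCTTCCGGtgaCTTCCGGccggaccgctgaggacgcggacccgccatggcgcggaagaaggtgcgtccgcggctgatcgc
MRPS27: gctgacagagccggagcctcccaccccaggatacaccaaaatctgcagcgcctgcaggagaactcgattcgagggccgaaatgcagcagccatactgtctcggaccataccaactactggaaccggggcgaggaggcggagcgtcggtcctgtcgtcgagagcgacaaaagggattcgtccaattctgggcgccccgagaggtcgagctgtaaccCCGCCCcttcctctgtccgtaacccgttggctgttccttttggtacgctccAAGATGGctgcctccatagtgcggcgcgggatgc
MRPL18: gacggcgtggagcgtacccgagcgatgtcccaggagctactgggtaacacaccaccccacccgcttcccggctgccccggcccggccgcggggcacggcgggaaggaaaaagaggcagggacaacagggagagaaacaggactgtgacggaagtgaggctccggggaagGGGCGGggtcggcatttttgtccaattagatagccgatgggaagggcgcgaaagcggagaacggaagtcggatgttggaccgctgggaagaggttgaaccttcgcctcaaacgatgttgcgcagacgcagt
The MRPS34 window held 3 ETS matches and 2 SP1 matches. All 3 ETS matches lay within the last 71 bases before the start. The MRPS27 window held 1 YY1 match, 16 bases after the start, and 1 SP1 match 35 bases before it. At that place the ATG of the YY1 core can be a start codon. The MRPL18 window, the most upstream of 3 listed starts, held 1 SP1 match. None of the 3 windows held an NRF1 match, which says only that these letters are not there.

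As lists, the large and small subunit genes had medians slightly above 0. The median log2 ratio of MRPL genes was 0.024 in A549 and 0.13 in H1299, and that of MRPS genes 0.095 and 0.11, against −0.020 and −0.0097 for all genes tested. Ratios were above 0 in both lines for 41 of the 75 genes (54.7%, against 31.6% of all genes tested) and below 0 in both for 18 (24.0%, against 36.7%). Between the lines, the ratios of the 75 genes had a Pearson r of 0.86 and a Spearman rho of 0.69, and those of the 73 genes other than MRPS27 and MRPS34 had 0.76 and 0.66. Across all genes tested the values were 0.63 and 0.56. Genes are not independent replicates, all points share the same 4 arrays, and members were not matched to all genes on signal.

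Among the large subunit genes, those with the highest ratios were MRPL22, MRPL24, MRPL28, MRPL27 and MRPL57, and none passed the test. MRPL22 and MRPL24 encode counterparts of bacterial proteins around the exit of the peptide tunnel. MRPL22 had signals of 1324 with hMOF siRNA and 983 with scramble siRNA in A549, and 2091 with hMOF siRNA and 1219.8 with scramble siRNA in H1299 (log2 0.42 in A549 and 0.76 in H1299; limma adjusted p = 0.0835). Both hMOF siRNA signals lay above both scramble signals. MRPL24 had signals of 2824 with hMOF siRNA and 2196 with scramble siRNA in A549, and 3246 with hMOF siRNA and 1979 with scramble siRNA in H1299 (log2 0.36 in A549 and 0.71 in H1299; limma adjusted p = 0.100). For MRPL28, another protein with a bacterial counterpart, the signals were 779.7 with hMOF siRNA and 547 with scramble siRNA in A549, and 928 with hMOF siRNA and 635 with scramble siRNA in H1299 (log2 0.49 in A549 and 0.53 in H1299; limma adjusted p = 0.0760). MRPL28 was the closest of these to the same ratio in both lines. MRPL27, whose bacterial counterpart reaches toward the peptidyl transferase centre, was at log2 0.37 in A549 and 0.51 in H1299, and MRPL57, a mitochondria-specific subunit, at 0.21 in A549 and 0.53 in H1299. The other kept probe sets of MRPL57 spanned mean ratios of 0.052 to 0.45.

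At the other end of the large subunit, MRPL18 was followed by MRPL49, MRPL39, MRPL43 and MRPL58, all mitochondria-specific. MRPL49 had signals of 930.4 with hMOF siRNA and 1098 with scramble siRNA in A549, and 686 with hMOF siRNA and 1042 with scramble siRNA in H1299 (log2 −0.23 in A549 and −0.58 in H1299; limma adjusted p = 0.161). The H1299 array with hMOF siRNA was the lowest of the 4 for this gene, and the scramble arrays of the lines were close to each other. MRPL39 was at log2 −0.35 in A549 and −0.23 in H1299, MRPL43 at −0.30 in A549 and −0.24 in H1299, and MRPL58, a peptidyl-tRNA hydrolase that releases stalled ribosomes, at −0.18 in A549 and −0.34 in H1299. None of these 4 passed limma's test, with adjusted p values from 0.161 to 0.249.

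The small subunit genes below MRPS34 in rank were MRPS7, MRPS16, MRPS18B and MRPS25, and those above MRPS27 were MRPS18C, MRPS17, MRPS23 and MRPS2. MRPS7, the counterpart of a bacterial protein of the head of the subunit, had signals of 1313 with hMOF siRNA and 1066 with scramble siRNA in A549, and 1471 with hMOF siRNA and 986 with scramble siRNA in H1299 (log2 0.29 in A549 and 0.56 in H1299; limma adjusted p = 0.128). MRPS16, the counterpart of a bacterial small subunit protein, had signals of 1199 with hMOF siRNA and 888 with scramble siRNA in A549, and 967 with hMOF siRNA and 723 with scramble siRNA in H1299 (log2 0.42 in A549 and 0.41 in H1299; limma adjusted p = 0.106). Its ratio was almost the same in both lines, and the other kept MRPS16 probe set gave a mean of 0.31. MRPS18C had signals of 1044 with hMOF siRNA and 1315 with scramble siRNA in A549, and 1380.1 with hMOF siRNA and 2140.3 with scramble siRNA in H1299 (log2 −0.33 in A549 and −0.62 in H1299; limma adjusted p = 0.113). Its other kept probe set, with far dimmer signals of 82.6 to 103, had a mean ratio of −0.0040. MRPS17 was at log2 −0.46 in A549 and −0.33 in H1299, MRPS23 at −0.31 in A549 and −0.38 in H1299 and MRPS2 at −0.24 in A549 and −0.16 in H1299, below 0 in both lines for each, and MRPS25 at 0.26 in A549 and 0.33 in H1299. None of these 8 genes passed, with limma adjusted p values from 0.106 to 0.337.

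**Figure D2:**
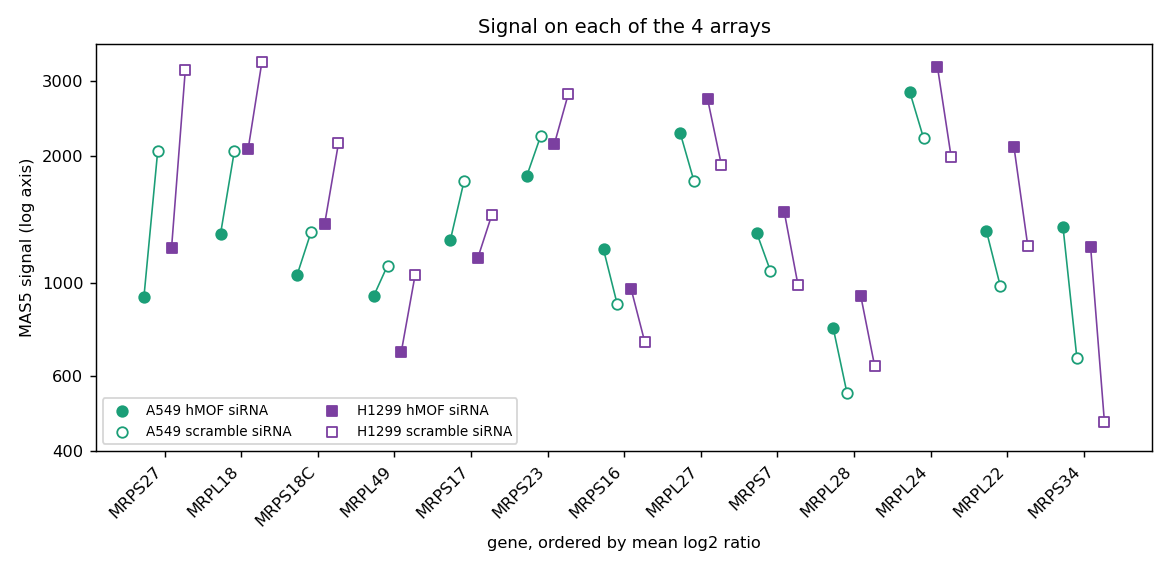
MAS5 signal (log axis) of 13 members with low or high ratios, ordered from the lowest to the highest mean log2 ratio, on A549 (green circles) and H1299 (purple squares) arrays with hMOF siRNA (filled, left of each pair) and scramble siRNA (open). Lines join the arrays of a cell line, 1 array per point, and they slope the same way in both lines for each gene shown.

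Split by ancestry, the 28 MRPL genes with bacterial counterparts had a median over both lines of 0.12 and the 20 mitochondria-specific ones 0.0067. In the small subunit the 17 genes with bacterial counterparts had 0.094 and the 10 mitochondria-specific ones 0.10. The mitochondria-specific MRPS genes included both called members, and their mean ratios ran from −1.25 to 1.16. This division was made with the values known and carries no test.

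Ratios pointed in opposite directions in the lines for 15 of 48 MRPL genes (31.3%) and 1 of 27 MRPS genes (3.70%), against 31.7% of all genes tested. The widest gaps with H1299 above A549 were at MRPL42 (−0.17 in A549 and 0.28 in H1299), MRPL32 (−0.17 in A549 and 0.25 in H1299) and MRPL24. Those with H1299 below A549 were at MRPS6 (0.22 in A549 and −0.16 in H1299), MRPL49 and MRPL23 (0.34 in A549 and 0.027 in H1299). MRPL32, a protein matured by the m-AAA protease, had signals of 3059 with hMOF siRNA and 3447 with scramble siRNA in A549, and 2675 with hMOF siRNA and 2247 with scramble siRNA in H1299. With 1 pair of arrays per line, the difference of the ratios was not tested.

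Of the 75 protein genes, 31 had more than 1 kept probe set. In 20 of them all kept probe sets had mean ratios of 1 sign, and the median span between probe sets of a gene was 0.10 on the log2 scale. The largest spans were at MRPL19 (−0.56 to −0.051), MRPS18C (−0.47 to −0.0040) and MRPS25 (−0.13 to 0.30). No member had kept probe sets at 0.3 or more in both directions. MRPL20-AS1, a long noncoding RNA whose RefSeq span overlaps that of MRPL20, was at log2 0.15 in A549 and 0.092 in H1299, while MRPL20 was at 0.047 in A549 and 0.024 in H1299. MRPL45P2 had signals of 13.2 with hMOF siRNA and 20.5 with scramble siRNA in A549 and 16.2 and 18.8 in H1299, all under the offset.

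The promoters of mitochondrial ribosomal protein genes were searched for short cores, which the choice of members did not use. RefSeq windows matched 67 of the 75 protein genes, 41 MRPL and 26 MRPS. The ETS core was found in 28 of the 67 (41.8%), against 18.2% of the windows of all genes tested and 10.6% of all promoters. The YY1 core was found in 22 (32.8%), against 7.48% and 6.03%. At least 1 of these cores was in 41 windows (61.2%, against 24.0% of genes tested), and 9 windows held both. The NRF1 core is a site of the factor known for driving nuclear genes of the respiratory chain. It was in 8 windows (11.9%), close to the 11.4% of genes tested and above the 6.29% of all promoters. The SP1 core was in 58.2%, below the 68.8% of genes tested but above the 44.5% of all promoters. The CCAAT box was in 29.9%, below the 36.5% of genes tested and the 35.7% of all promoters. The TATAAA box was in 2 windows. Matches were sought on both strands and may overlap, and each core was counted by itself. These shares are descriptions of letters, not of binding.

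**Figure D3:**
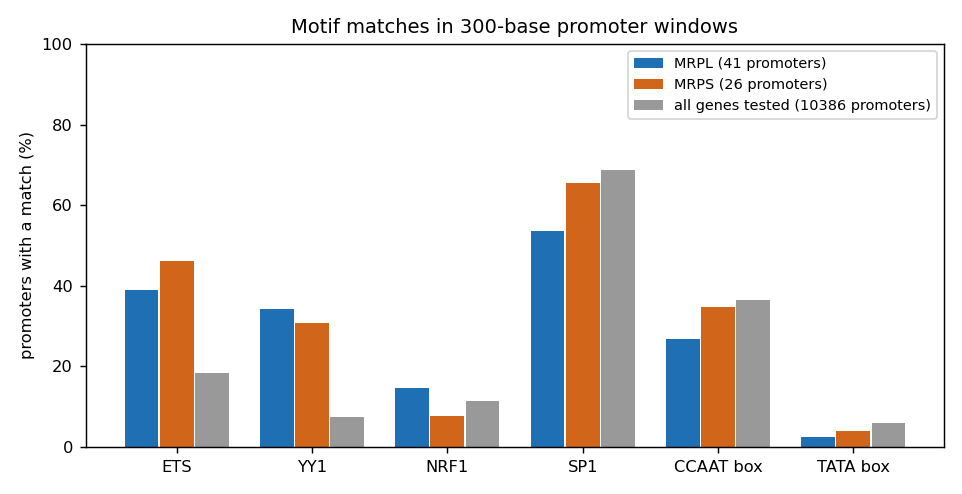
Share of promoter windows (%) with at least 1 match to each core on either strand, for 41 MRPL promoters (blue), 26 MRPS promoters (orange) and the 10386 promoters of all genes tested (grey). ETS and YY1 bars of both subunits stand above the grey bars, while SP1, CCAAT and TATA bars stand below them.

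The siRNA ratios of members with and without a core were set side by side. The median over both lines was 0.089 for the 28 with an ETS core and 0.057 for the 39 without. It was 0.094 for the 22 with a YY1 core and 0.073 for the 45 without. For the NRF1 core it was 0.20 for 8 members and 0.057 for 59. These medians were not tested.

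Some members have a neighbour that starts head to head on the other strand. Such a start lay within 1000 bases upstream of 21 of the 67 members (31.3%), against 23.1% of genes tested, and this difference was not tested. In 1 case both neighbours are members: MRPL46 and MRPS11 on chromosome 15, whose starts are 320 bases apart, were at mean log2 ratios of 0.100 and 0.094. MRPS27 starts 133 bases from PTCD2, a gene for another pentatricopeptide repeat protein, which was at log2 −0.20 in A549 and −0.13 in H1299 (limma adjusted p = 0.418) and did not pass. MRPL49 starts 49 bases from FAU, which encodes a cytosolic ribosomal protein fusion, and FAU was at 0.036 in A549 and −0.0055 in H1299. MRPS18C, at −0.33 in A549 and −0.62 in H1299, starts 175 bases from HELQ, a helicase gene, which was at 0.22 in A549 and 0.35 in H1299. Other neighbours moved the same way as the member. PIERCE1 starts 96 bases from MRPS2, whose mean ratio was −0.20. PIERCE1 had log2 ratios of −0.56 (A549) and −0.43 (H1299), with a limma adjusted p of 0.0835. NCAPD2 starts 840 bases from MRPL51, whose mean ratio was 0.088. NCAPD2 had log2 ratios of 0.39 (A549) and 0.67 (H1299), with a limma adjusted p of 0.0918. Neither PIERCE1 nor NCAPD2 passed. The neighbour of MRPL18 is TCP1, 210 bases away, which was not among the genes tested.

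Genes that build and serve the mitochondrial ribosome were read from lists by role. Of 25 measured assembly factors, 1 rose (1.16% of all genes tested did), 2 fell (2.41% of all genes did) and 22 did not pass limma's test. An unadjusted p under 0.05 was given to 5 of the 25 (23.8% of all genes had one). The list had a median over both lines of 0.10 against −0.012 for all genes tested. RCC1L, a factor for large subunit assembly, had signals of 939 with hMOF siRNA and 491 with scramble siRNA in A549, and 1456 with hMOF siRNA and 599 with scramble siRNA in H1299 (log2 0.90 in A549 and 1.24 in H1299; limma adjusted p = 0.0346). It was above scramble in both lines, and averaging its probe sets gave a mean of 0.65 in place of 1.07 (limma adjusted p = 0.0456; range with the block 0.0230 to 0.0456). ERAL1, a GTPase that acts as a chaperone of the small subunit rRNA, had signals of 188 with hMOF siRNA and 468 with scramble siRNA in A549, and 117 with hMOF siRNA and 261 with scramble siRNA in H1299 (log2 −1.20 in A549 and −0.99 in H1299; limma adjusted p = 0.0321). It was below scramble in both lines. TFB1M, the enzyme that dimethylates the small subunit rRNA, fell too, at log2 −0.76 in A549 and −0.74 in H1299 (limma adjusted p = 0.0434). It was read on an _x_at probe set, a kind whose probes can match other transcripts, and was at −0.68 over both lines without such probe sets. TFB1M did not pass when its probe sets were averaged (mean −0.48, limma adjusted p = 0.0689; range with the block 0.0364 to 0.0689).

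Of 15 translation factors, 1 fell (2.41% of all genes tested did), none rose and 14 did not pass. An unadjusted limma p under 0.05 was given to 4 of the 15 (26.7%, against 23.8% of all genes; list median −0.015). The one that fell was GUF1, a relative of a bacterial elongation factor, with signals of 101 with hMOF siRNA and 193 with scramble siRNA in A549, and 387 with hMOF siRNA and 886 with scramble siRNA in H1299 (log2 −0.77 in A549 and −1.14 in H1299; limma adjusted p = 0.0435). GUF1 did not pass with the higher offset (limma adjusted p = 0.0503), nor at the −0.34 averaged over its probe sets (limma adjusted p = 0.132; range with the block 0.0333 to 0.132). The highest of this list was MTIF2, the initiation factor, at log2 0.38 in A549 and 0.39 in H1299 (limma adjusted p = 0.119). None of 15 mitochondrial aminoacyl-tRNA synthetases passed limma's test (list median −0.0088). An unadjusted limma p under 0.05 was given to 2 of them (13.3%, against 23.8% of all genes). The arginine enzyme RARS2 was lowest (−0.65 in A549 and −0.59 in H1299) and the phenylalanine enzyme FARS2 highest (0.36 in A549 and 0.32 in H1299).

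Among 10 genes of mitochondrial DNA transcription and replication, 1 rose (1.16% of all genes tested did), none fell and 9 did not pass. An unadjusted limma p under 0.05 was given to 2 of the 10 (20%, against 23.8% of all genes; list median −0.057). TOP1MT, the mitochondrial topoisomerase, rose, with signals of 765 with hMOF siRNA and 404 with scramble siRNA in A549, and 1094 with hMOF siRNA and 588 with scramble siRNA in H1299 (log2 0.87 in A549 and 0.86 in H1299; limma adjusted p = 0.0346). TFAM, the packaging and transcription factor of mitochondrial DNA, was at log2 −1.06 in A549 and −0.44 in H1299 on an _x_at probe set. It did not pass (limma adjusted p = 0.0919). Of 8 regulators of nuclear genes for mitochondria none passed (list median 0.042). Among these regulators, 2 were at an unadjusted limma p under 0.05 (25%, against 23.8% of all genes). GABPB1, the partner of the ETS factor GABPA, was at log2 0.49 in A549 and 0.47 in H1299 on an _x_at probe set, a kind whose probes can match other transcripts, and at −0.0069 over both lines without such probe sets. MYC was at −0.48 in A549 and −0.51 in H1299. Of the mitoribosomal proteins whose symbols do not begin with MRP, 4 were measured and none passed (list median 0.21). Among these 4, 1 was at an unadjusted limma p under 0.05 (25%, against 23.8% of all genes). GADD45GIP1, a large subunit protein, was highest at 0.46 in A549 and 0.44 in H1299, and PTCD3, of the small subunit, lowest at −0.068 in A549 and −0.043 in H1299.

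Far more members were called between the cell lines than between the siRNAs. Blocked on the siRNA, limma put 35 of the 75 members (46.7%) above A549 in H1299 and 10 (13.3%) below, at an adjusted p under 0.05. The shares among all genes tested were 25.1% above and 27.3% below. Apart, 20 MRPL genes were higher in H1299, 7 higher in A549 and 21 did not pass, and 15 MRPS genes were higher in H1299, 3 higher in A549 and 9 did not pass. The median difference, H1299 minus A549, was 0.21 for MRPL and 0.42 for MRPS genes, against −0.032 for all genes tested. The test takes the siRNAs as repeats, and without that block 12 MRPL and 8 MRPS genes were called higher in H1299 (15.7% of all genes tested were) and, as with it, 7 MRPL and 3 MRPS genes higher in A549 (17.8% of all genes).

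**Figure D4:**
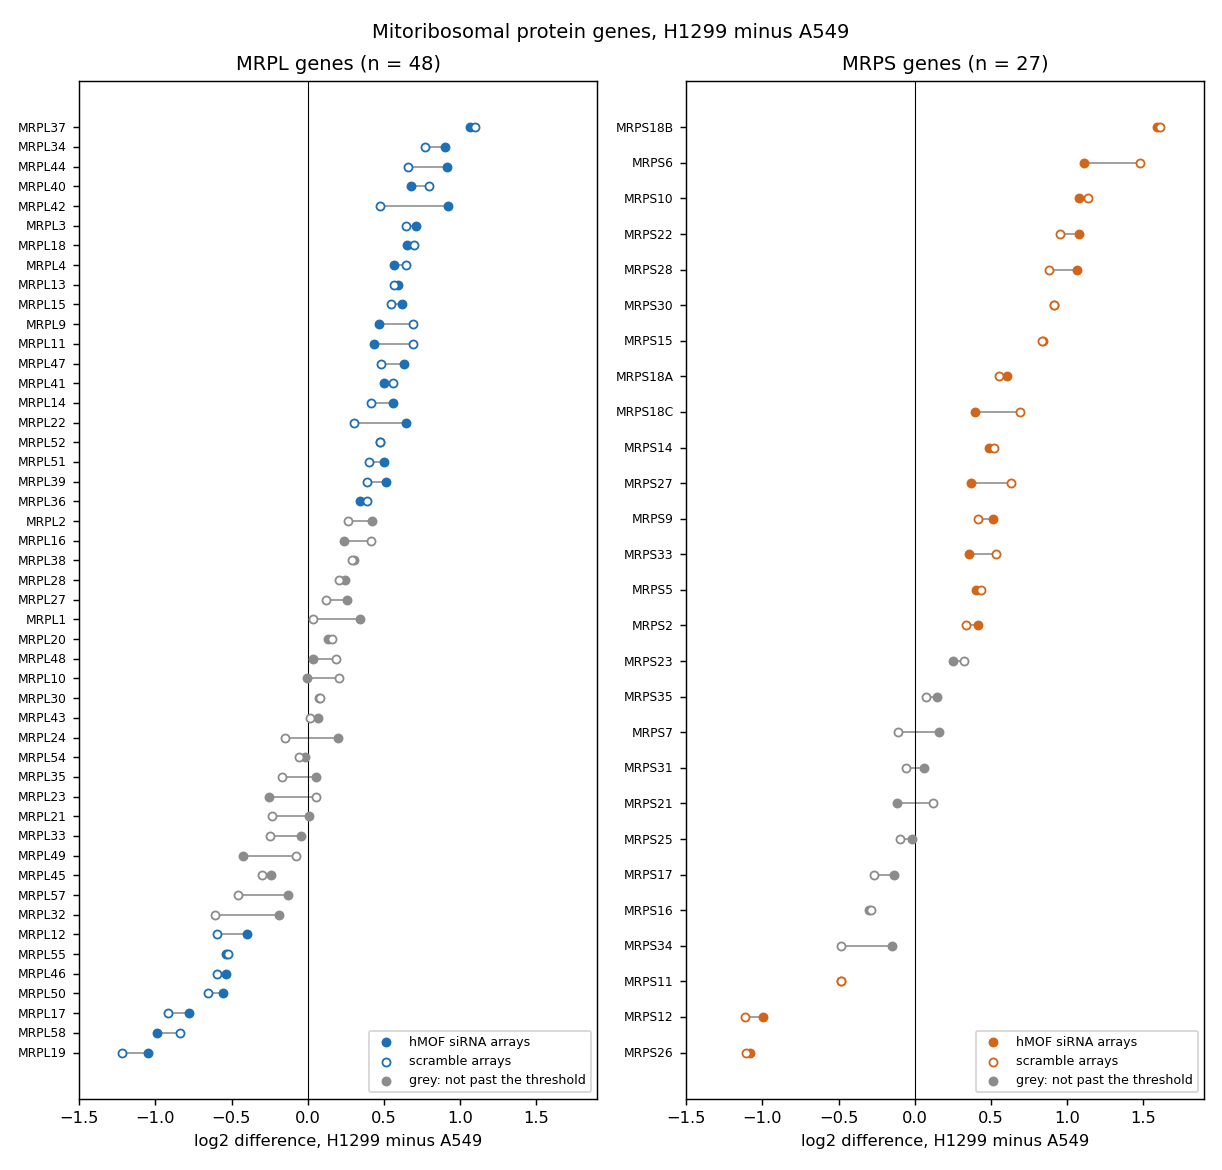
Log2 difference of H1299 minus A549 for each MRPL gene (left) and MRPS gene (right), on the arrays with hMOF siRNA (filled) and with scramble siRNA (open), ordered by their mean and in grey where limma's adjusted p was not under 0.05. MRPS18B lies highest at 1.59 and 1.61, MRPL19, MRPS26 and MRPS12 lie lowest, and more coloured points stand right of 0 than left of it.

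The small subunit held the widest difference. MRPS18B had signals of 4384 with hMOF siRNA and 3557 with scramble siRNA in H1299, against 1436 with hMOF siRNA and 1145 with scramble siRNA in A549 (log2 1.60 ± 0.014, SD, n = 2 siRNAs; limma adjusted p = 0.000512). Its other kept probe set had 2556 with hMOF siRNA and 1973 with scramble siRNA in H1299, against 634 and 459 in A549, in the same direction. MRPS6 had signals of 2794 with hMOF siRNA and 3115 with scramble siRNA in H1299, against 1281 with hMOF siRNA and 1098 with scramble siRNA in A549 (log2 1.29 ± 0.26; limma adjusted p = 0.00185). MRPS10 had signals of 1766 with hMOF siRNA and 1713 with scramble siRNA in H1299, against 823 with hMOF siRNA and 764 with scramble siRNA in A549 (log2 1.11 ± 0.043; limma adjusted p = 0.00148). In these 3 genes, counterparts of bacterial small subunit proteins, neither siRNA made the lines overlap. MRPS22, mitochondria-specific, was at 1.01 on an _x_at probe set and MRPS28 at 0.97, both higher in H1299. In the other direction MRPS26 had signals of 785 with hMOF siRNA and 813 with scramble siRNA in H1299, against 1693 with hMOF siRNA and 1782 with scramble siRNA in A549 (log2 −1.09 ± 0.017; limma adjusted p = 0.00150). MRPS12, the counterpart of a bacterial protein of the decoding centre, had signals of 1578 with hMOF siRNA and 1333 with scramble siRNA in H1299, against 3179 with hMOF siRNA and 2919 with scramble siRNA in A549 (log2 −1.06 ± 0.083; limma adjusted p = 0.00178). The other kept MRPS12 probe sets gave smaller line differences, of −0.44 to −0.19. MRPS26 and MRPS12 were both higher in A549, as was MRPS11 (−0.48). MRPS34, at −0.32, and MRPS16, at −0.29, did not pass.

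In the large subunit, MRPL37, a mitochondria-specific protein, had signals of 1761 with hMOF siRNA and 1798 with scramble siRNA in H1299, against 829 with hMOF siRNA and 826 with scramble siRNA in A549 (log2 1.08 ± 0.024; limma adjusted p = 0.00155). It was followed by MRPL34 (0.83), MRPL44 (0.78), MRPL40 (0.74) and MRPL42 (0.70), all higher in H1299. The other kept MRPL44 probe set was at 0.12. MRPL19 had signals of 690.3 with hMOF siRNA and 673 with scramble siRNA in H1299, against 1458 with hMOF siRNA and 1606 with scramble siRNA in A549 (log2 −1.13 ± 0.12; limma adjusted p = 0.00161). Its 3 kept probe sets differed, with line differences of −1.13 to 0.15. Averaged over them MRPL19 was at −0.40 and did not pass (limma adjusted p = 0.0532; range with the block 0.00121 to 0.0532). MRPL58 (−0.91), MRPL17 (−0.85), MRPL50 (−0.61) and MRPL46 (−0.57) were higher in A549. Over the 31 members with several kept probe sets, the line difference had 1 sign in 24.

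The MRPS18 genes are paralogs that all descend from 1 bacterial small subunit protein. All 3 were higher in H1299, MRPS18B at 1.60, MRPS18A at 0.58 and MRPS18C at 0.54 (limma adjusted p = 0.000512, 0.0104 and 0.0208). Under hMOF siRNA their ratios ran apart, at 0.32 in A549 and 0.30 in H1299 for MRPS18B, 0.012 in A549 and 0.059 in H1299 for MRPS18A and −0.33 in A549 and −0.62 in H1299 for MRPS18C, and none of these passed. MRPS18A signals were 538 with hMOF siRNA and 515 with scramble siRNA in H1299, against 345 with hMOF siRNA and 342 with scramble siRNA in A549. The window at the start of MRPS18B, the member with the widest line difference, lies on the plus strand of chr6:30617590-30617889 and is printed in the same way.
MRPS18B: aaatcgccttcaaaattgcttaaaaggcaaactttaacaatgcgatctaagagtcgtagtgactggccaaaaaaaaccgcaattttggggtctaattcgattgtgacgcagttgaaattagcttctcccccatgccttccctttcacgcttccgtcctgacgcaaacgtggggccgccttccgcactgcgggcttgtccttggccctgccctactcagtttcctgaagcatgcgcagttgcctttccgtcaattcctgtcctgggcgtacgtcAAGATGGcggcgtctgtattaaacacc
Its 1 match is the YY1 core, 23 bases after the start, where the ATG of the core can be a start codon.

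The line difference was also set out by chromosome. Of 13 chromosomes with 2 or more called members, 8 had them called in 1 direction and 5 (chromosomes 1, 2, 9, 11 and 19) in both, and this was not tested. Chromosome 6 carries 6 members, and 5 of them were higher in H1299 (MRPS18B, MRPS10, MRPL18, MRPS18A and MRPL14), while MRPL2, at 0.34, did not pass (limma adjusted p = 0.0561). Of all genes tested on chromosome 6, 54.6% were higher in H1299, and their median difference was 0.52, the highest of the autosomes and X. All 3 members on chromosome 8 and all 4 on chromosome 5 were higher in H1299 as well, where the shares of all genes were 31.1% and 30.0%. On chromosome 15, where 45.4% of genes were higher in A549, MRPL46 and MRPS11 were both higher in A549. On chromosome 17, 2 of 8 members were higher in A549 and none in H1299, against 38.2% and 11.5% of its genes.

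**Figure D5:**
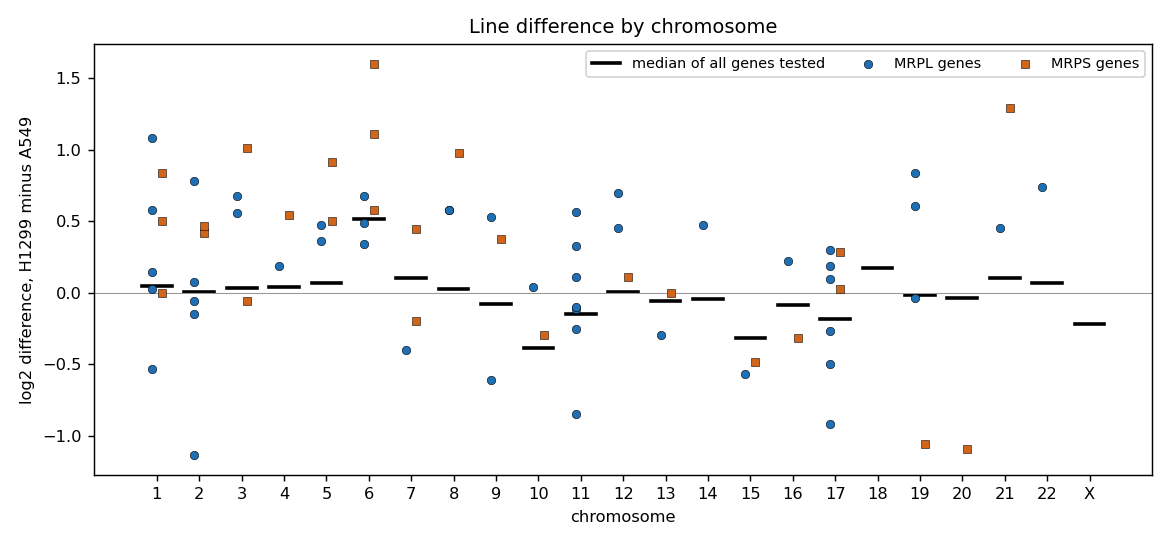
Log2 difference of H1299 minus A549, averaged over the siRNAs, for MRPL genes (blue circles) and MRPS genes (orange squares) by chromosome, with the median of all genes tested on that chromosome (black bars). All 6 members on chromosome 6 lie above 0, where the bar stands at 0.52, and both members on chromosome 15 lie below 0.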

How the data were processed

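Total RNA was labelled as biotinylated cRNA and measured on 54675 Affymetrix probe sets. The authors deposited 1 linear intensity, a MAS5 signal by the submitters' processing notes, for every probe set and array. Its version is not given in the sources used here, and neither is the scaling target. Probe sets were named by the platform annotation, symbols were checked in RefSeq (GRCh38.p14, 0 changed), and groups came from source names.

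The 20th percentile of all signals, 29.06, was added before log2, which shrinks ratios of dim genes. Probe sets needed a mean signal at the 50th percentile (78.1), and the brightest per gene was kept, leaving 12830 genes. Limma 3.58.1 in R 4.3.3 (lmFit, eBayes, Benjamini-Hochberg over all genes) was fitted to the 4 arrays with cell line and siRNA as terms, with 1 residual and 3.74 prior degrees of freedom. The fit was also run on simulated arrays with equal noise for every gene, so that run does not measure error rates in these data. SDs are over lines or siRNAs (n = 2). The number of arrays limits precision.

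Members, lists and rules were chosen with earlier results of these data known. Named members were those past the siRNA threshold, 1.5-fold alike in both lines, at the 5 highest and lowest ratios or line differences per subunit, at the 3 widest gaps between lines each way, the MRPS18 paralogs, any with opposed probe sets, and antisense or pseudogene symbols. Each list gave its called, highest and lowest genes. PTCD2, FAU, HELQ, PIERCE1, NCAPD2, MRPL51, MRPL20, MRPL2 and MRPL14 were named after their values were seen. Motifs were sought in RefSeq promoter windows. Figures were drawn with matplotlib 3.10.9. As alternatives the offset, the filter, the scaling, the choice of probe set, the prior and the block were varied in turn, and each line or siRNA was taken alone.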

Additional observations from a re-analysis of the deposited data

Results flagged for a closer look

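Among the members named, 7 had ratios of opposite sign in the 2 cell lines, each read from 1 pair of arrays, and the difference was not tested. The H1299 ratio was above the A549 ratio by log2 0.45 at MRPL42, 0.42 at MRPL32, 0.26 at MRPL44, 0.17 at MRPL19 and 0.098 at MRPL50. The difference, H1299 minus A549, was −0.37 at MRPS6 and −0.034 at MRPL37. MRPL42, a mitochondria-specific large subunit gene, had signals of 1418 with hMOF siRNA and 1596 with scramble siRNA in A549, and 2716 with hMOF siRNA and 2231 with scramble siRNA in H1299. Averaging the kept probe sets put MRPL42 at a mean ratio of −0.0058 and MRPL44 at −0.043, on the other side of 0.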

How the results depend on the processing

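MRPS27 and MRPS34 kept direction and call under all 9 alternatives with a block, and lost the call without it. Each has 1 kept probe set, so changing the filter, the choice of probe set or the prior could not move its ratio. When the block was dropped, 0 MRPS genes were called higher and 0 lower with hMOF siRNA, as were 0 MRPL genes and 0 of all genes tested. The count of MRPL genes called lower was 1 (MRPL18), instead of 0, with the offset at the 40th percentile, the filter at the 70th, quantile normalization, averaged probe sets, no _x_at probe sets or a trended prior. Without the block, 12 instead of 20 MRPL and 8 instead of 15 MRPS genes were higher in H1299. Quantile normalization moved the medians of the line difference to 0.26 (MRPL) and 0.49 (MRPS) and the MRPS siRNA median to 0.13, and averaged probe sets moved the MRPS line difference to 0.36. With 1 siRNA alone the line medians ran from 0.20 to 0.25 (MRPL) and 0.37 to 0.42 (MRPS). With 1 line alone the siRNA medians ran from 0.024 to 0.13 (MRPL) and 0.095 to 0.11 (MRPS). No named member past a threshold changed direction under any alternative. The main test pairs the siRNAs within each line through the block, and the labels give no replicate numbers for any other pairing. Detection calls were not used here, so how far a dim probe set stands above background is not known.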

Other observations

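The transcripts that the mitochondrial ribosome translates were looked at after the values of its protein genes were seen. Of the protein genes of mitochondrial DNA, 7 had a probe set annotated to them alone. COX2, a cytochrome oxidase subunit, had signals of 17495 with hMOF siRNA and 17911 with scramble siRNA in A549 and 14484 and 14598 in H1299. COX1, of the same complex, had 14940 with hMOF siRNA and 13751 with scramble siRNA in A549 and 14039 and 10913 in H1299 (log2 0.12 in A549 and 0.36 in H1299; limma adjusted p = 0.308). The other 5 (ND2, ND4, ND6, COX3 and ATP6) had limma adjusted p values from 0.480 to 0.988, and none of the 7 passed. COX3 was read on an _x_at probe set with signals of only 117 to 160, far below those of COX1 and COX2. ND6, encoded on the other strand of mitochondrial DNA from most genes, was at −0.022 in A549 and −0.32 in H1299.

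MRPL53 and MRPS24 were read only on probe sets that the annotation gives to several genes, so they were not counted as members. The probe set of MRPL53, shared with CCDC142, had signals of 2198 with hMOF siRNA and 1699.7 with scramble siRNA in A549 and 1859.8 and 1525 in H1299. That of MRPS24, shared with a read-through transcript from URGCP, had 5232 with hMOF siRNA and 5359 with scramble siRNA in A549 and 5575 and 5597 in H1299.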
